A study of Mus musculus with 24 samples.

Results

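Expression of 10 genes of insulin signalling and glucose uptake was examined in brown adipose tissue (BAT), the heat-producing fat, and in the ventromedial hypothalamus (VMH), a hypothalamic nucleus that takes part in the control of energy balance. The genes were Insr, Irs1, Irs2, Pik3r1, Akt2, Slc2a4, Slc2a1, Pck1, Foxo1 and Grb10, picked by symbol for their place in the pathway. Each gene was read from the array row annotated with its symbol alone, and the brightest such row would have stood for a gene with several. Of these 10 genes 9 had a row, 1 each, among 30142 genes measured. Insr, the insulin receptor, was not analysed here.

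Insulin binds its receptor, a tyrosine kinase, which phosphorylates the insulin receptor substrates. These recruit phosphoinositide 3-kinase, which activates the kinase AKT. AKT moves glucose transporter vesicles to the cell surface in fat and muscle and keeps the transcription factor FOXO1 out of the nucleus. In brown fat, insulin drives glucose uptake and lipid storage, and hypothalamic neurons and glia also carry the receptor.

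Both tissues came from mice labelled as a conditional knockout (cKO) of Bmal1, a core clock transcription factor, under Gfap, whose promoter is active in astrocytes, and from control mice, on either high fat diet (HFD) or standard diet (SD) for 16 weeks. The groups were, in each tissue, cKO mice on HFD, control mice on HFD, cKO mice on SD and control mice on SD, with 3 arrays each and 24 arrays in all. The sample titles mark the control mice as WT and the cKO mice as KO. The labels name no strain or age, and they give no further detail on the alleles of the controls. Nor do they say that each array was a different animal, so the p-values reflect array-to-array spread, which may be technical. Total RNA was taken from 20 mg of BAT or from VMH dissected out of 100 µm brain sections. In whole tissue, fewer cells of a type and less RNA per cell cannot be told apart.

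The deleted gene itself showed no lower signal under the cKO label. In VMH the row of Bmal1 (Arntl in the annotation) lay between 8.93 and 9.54 on the log2 scale in cKO mice, against 8.49 to 9.22 in controls. No source used here says whether that row covers the deleted part, so cKO is used below as the label of the arrays. The VMH arrays carried the nucleus' markers Fezf1 (mean log2 signal 15.08), Slc17a6 (15.64) and Nr5a1 (8.04). The BAT arrays varied in their cell mix. The mean log2 signal of 14 skeletal muscle markers lay between 6.04 and 13.29 on HFD. On SD it was 6.01 in array 2 of the control group, the lowest of all. The other SD arrays lay between 14.98 and 17.89, above each HFD array, so muscle signal nearly separated the diets. The mean of 10 brown adipocyte markers lay between 12.30 and 13.32 on HFD and between 7.88 and 13.47 on SD. It was lowest in array 1 of the control SD group and array 2 of the cKO SD group, at 7.88 and 9.77. The first principal component held 72.2% of the variance among BAT arrays and 19.3% among VMH arrays. Tests were made only within a tissue.

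In BAT, the adaptor Irs1 was lower on high fat diet, and it was the 1 member of 9 past the threshold, a limma p at or under 0.05 after Benjamini-Hochberg adjustment over all 17124 genes tested. Irs1 encodes insulin receptor substrate 1, which links the receptor to phosphoinositide 3-kinase. In cKO mice on HFD its log2 signal was 7.92, 7.69 and 8.06, and in control mice on HFD 7.33, 7.39 and 7.51. In cKO mice on SD it was 8.21, 9.63 and 9.83, and in control mice on SD 9.75, 9.02 and 9.75. All HFD arrays lay below all SD arrays, and array 1 of the cKO SD group came closest to them.

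Averaged over genotypes, Irs1 fell by 1.71 ± 0.267 on the log2 scale on HFD (SE; limma adjusted p = 0.0114), so that the level was 3.28-fold lower. In that comparison 18.5% of all genes passed the threshold, and 5.37% had HFD and SD arrays that did not overlap, as Irs1 did. In controls alone it fell by 2.09 ± 0.377 (limma adjusted p = 0.040), where 0.771% of genes passed and 25.2% did not overlap between diets. In cKO mice the difference was −1.33 ± 0.377 (limma adjusted p = 0.113), and 0% of genes passed in that comparison, with 3920 genes at an unadjusted p under 0.05. The diet effect in cKO minus that in controls was 0.76 ± 0.533 (limma adjusted p = 1), with a 95% interval of −0.43 to 1.95, and 0% of genes passed the interaction test (649 at an unadjusted p under 0.05).

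The call of Irs1 in controls rested on the full set of arrays. It was lost when any 1 of 5 of the 6 arrays compared was left out, with adjusted p values between 0.0693 and 0.188, and held without array 2 of the control SD group (0.0145). The averaged call held without each of the 12 arrays in turn (adjusted p between 0.00202 and 0.0371), but not without the pair of arrays with the lowest brown adipocyte markers (−1.55, adjusted p = 0.0647). With the muscle marker mean as a covariate the averaged difference was −1.31 ± 0.328 (limma adjusted p = 0.184), and with the brown adipocyte mean −1.44 ± 0.284 (adjusted p = 0.042).

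Other cell type markers moved with diet in the same arrays. The mean of 11 macrophage markers lay between 6.21 and 7.11 on HFD and between 5.36 and 5.999 on SD, with no overlap. Of 14 muscle markers 5 were called lower and 0 higher on HFD averaged over genotypes, and of 8 endothelial markers 7 were called higher. Of 10 brown adipocyte markers and of 8 markers of all adipocytes 0 were called, while 18.5% of all genes passed in that comparison. Of 6 white adipocyte markers 3 were called lower, and their mean lay between 7.52 and 8.92 on HFD and between 8.64 and 11.30 on SD. Array 2 of the control SD group had the lowest muscle mean, 6.01, the highest brown adipocyte mean, 13.47, and an Irs1 signal of 9.02, which is above each HFD array. The part of the cell mix in the Irs1 difference was not tested beyond the covariates. With the muscle covariate the call was lost, while the difference kept its direction. Except in array 2 of the control SD group, the muscle mean of SD arrays lay above each HFD array. That covariate therefore cannot be told apart from diet.

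**Figure D1:**
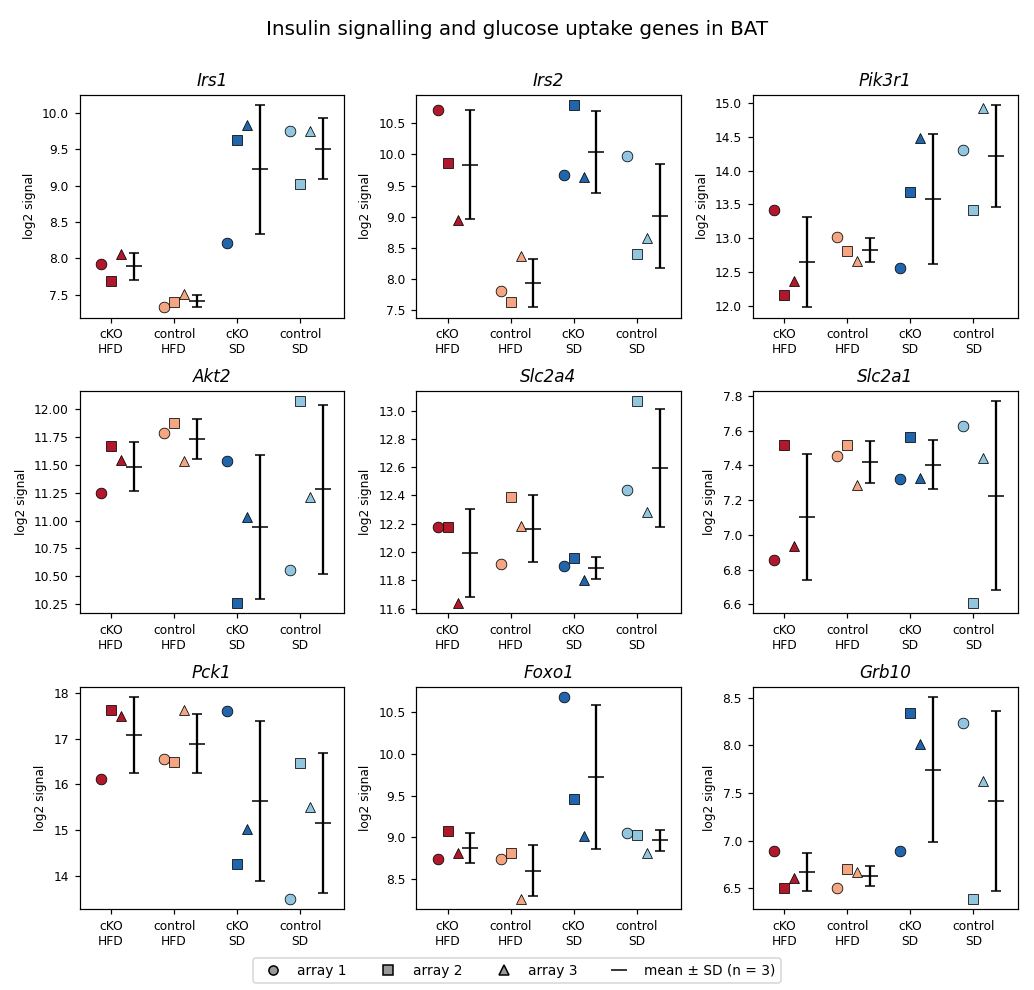
Log2 signal of the 9 measured genes in BAT by array. Groups run from cKO HFD through control HFD and cKO SD to control SD. Symbols mark the 3 arrays of a group, and the bar beside them is the mean ± SD. Irs1 lies between 7.33 and 8.06 in the 6 HFD arrays and between 8.21 and 9.83 in the 6 SD arrays.

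The upstream sequences of Irs1 and its paralogue Irs2 are shown because both hold a match to the E-box bound by clock factors beside a match to the core of the insulin response element, which FOXO proteins bind. They are the 250 bases before each start in RefSeq (GRCm38.p6), on the minus strand at chr1:82291440-82291689 for Irs1 and at chr8:11008930-11009179 for Irs2. Capitals mark CACGTG and TGTTTTG on the printed strand.
Irs1: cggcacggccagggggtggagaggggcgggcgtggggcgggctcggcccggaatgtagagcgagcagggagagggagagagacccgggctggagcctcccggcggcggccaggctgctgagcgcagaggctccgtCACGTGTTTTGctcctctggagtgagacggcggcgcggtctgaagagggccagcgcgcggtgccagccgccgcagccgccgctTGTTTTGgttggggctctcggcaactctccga
Irs2: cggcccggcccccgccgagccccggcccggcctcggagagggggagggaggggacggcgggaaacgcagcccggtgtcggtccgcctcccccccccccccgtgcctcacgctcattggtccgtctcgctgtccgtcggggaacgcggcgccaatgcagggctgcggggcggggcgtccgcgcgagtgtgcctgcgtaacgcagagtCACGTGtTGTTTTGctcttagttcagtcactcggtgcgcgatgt
In Irs1 the E-box starts 115 bases before the gene start and shares letters with an insulin element at 111 bases, and another insulin element starts at 32 bases. In Irs2 the E-box starts at 44 and the insulin element at 37 bases before the start. Searched on both strands, the E-box was in 6.02% of 32851 such windows, CAAAACA or TGTTTTG in 5.56%, and both together in 0.295%. Of the 13 member windows 2 held the E-box and 2 the insulin element, in Irs1 and Irs2 alone. These windows were picked for holding both, so the shares do not test the pair. The FOXO core GTAAACA or TGTTTAC was in 3.17% of windows. It was in 0 of the 13 windows of the 8 members that had one. These matches describe the letters and are not measured binding sites.

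Irs2 had higher values in BAT of cKO mice than of controls, without passing the threshold. Irs2 encodes insulin receptor substrate 2, the adaptor whose transcript is held down by insulin in liver. On HFD its log2 signal was 10.71, 9.85 and 8.95 in cKO mice, against 7.81, 7.63 and 8.38 in controls. On SD it was 9.68, 10.79 and 9.64 in cKO mice, against 9.97, 8.41 and 8.66 in controls. The genotypes did not overlap on HFD and overlapped on SD through array 1 of the controls, which also had the lowest brown adipocyte mean.

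The Irs2 difference, cKO minus control, was 1.90 ± 0.536 on HFD (limma adjusted p = 0.496) and 1.02 ± 0.536 on SD (adjusted p = 0.982). Averaged over diets it was 1.46 ± 0.379 (limma adjusted p = 0.547), with a 95% interval of 0.61 to 2.31. Over 22 alternatives it stayed between 1.13 and 1.70, with adjusted p values of 0.222 to 0.855. Of all BAT genes, 0% passed on either diet or averaged over diets, while 610 genes on SD, 1414 on HFD and 1495 averaged over diets had an unadjusted p under 0.05. Non-overlap was common: 19.8% of genes did not overlap between genotypes on HFD, 7.24% on SD, and 0.251% over the 6 arrays of each genotype. In the HFD comparison Irs1 was the other of 2 members that did not overlap, at +0.48 ± 0.377 (adjusted p = 0.799).

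For diet, Irs2 was 1 of 3 members with lower and non-overlapping values in controls on HFD, a comparison in which 25.2% of all genes did not overlap, at −1.07 ± 0.536 (limma adjusted p = 0.257). In cKO mice the same difference was −0.20 ± 0.536 (adjusted p = 0.848). The change of the diet effect with genotype was 0.88 ± 0.757 (adjusted p = 1). In order, Irs2 averaged 10.03 ± 0.655 in cKO SD, 9.84 ± 0.877 in cKO HFD, 9.01 ± 0.838 in control SD and 7.94 ± 0.390 in control HFD arrays (SD, n = 3 each). The first 3 groups overlapped with their neighbours, and the lowest control SD array, at 8.41, lay just above the highest control HFD array, at 8.38.

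Grb10 encodes an adaptor that binds the activated receptor and restrains it. Its log2 signal in BAT was 6.89, 6.50 and 6.61 in cKO HFD arrays, 6.50, 6.71 and 6.67 in control HFD arrays, 6.88, 8.34 and 8.01 in cKO SD arrays and 8.23, 6.38 and 7.62 in control SD arrays. The HFD arrays were close together, and the SD arrays ran from the lowest to the highest of the 12. The averaged diet difference was −0.93 ± 0.327 (limma adjusted p = 0.072). Of 22 alternatives 3 passed: without array 2 of the control SD group (−1.19, adjusted p = 0.0098), without array 1 of the cKO SD group (−1.15, 0.0232) and with array weights (−1.11, 0.00937). The difference shrank to −0.30 (adjusted p = 0.774) with the muscle covariate, −0.38 (0.339) with the brown adipocyte covariate and −0.58 (0.255) without the pair of arrays of lowest brown adipocyte markers. The SD arrays with the higher Grb10 signals had muscle means of 16.81 to 17.89, and the pair of SD arrays at 6.88 and 6.38 had muscle means of 14.98 and 6.01.

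**Figure D2:**
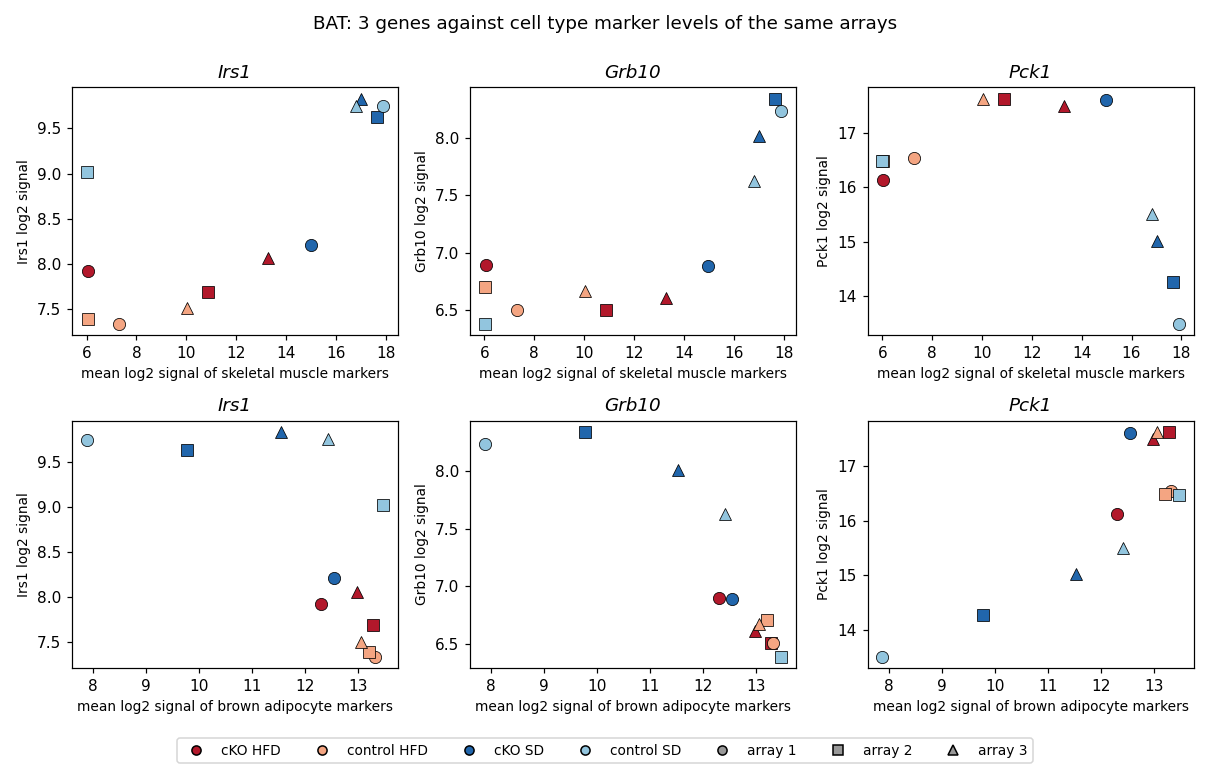
Irs1, Grb10 and Pck1 in BAT against the mean log2 signal of skeletal muscle markers (upper row) and brown adipocyte markers (lower row), 12 arrays each. Colours give the group and symbols the array number. Grb10 is high in the 4 arrays whose muscle mean is between 16.81 and 17.89, and Irs1 is 9.02 in the control SD array whose muscle mean is 6.01.

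Downstream of the adaptors, neither gene of the kinase step passed in BAT. Pik3r1 encodes the regulatory subunit p85 alpha of phosphoinositide 3-kinase. Its log2 signal was 13.41, 12.16 and 12.36 in cKO HFD and 13.02, 12.80 and 12.66 in control HFD arrays, against 12.56, 13.69 and 14.48 in cKO SD and 14.30, 13.42 and 14.92 in control SD arrays. Control diets did not overlap, while in cKO mice they did. The difference was −1.39 ± 0.527 in controls (limma adjusted p = 0.168) and −1.16 ± 0.373 averaged over genotypes (adjusted p = 0.0564). The averaged value passed in 4 of 22 alternatives: without array 2 of the control SD group (adjusted p = 0.021), array 1 of the cKO SD group (0.0179) or array 1 of the cKO HFD group (0.0492), and with array weights (0.0103). The other 18 did not pass, and the value was −0.87 (adjusted p = 0.522) with the muscle covariate and −0.92 (0.245) with the brown adipocyte covariate.

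Akt2 encodes the AKT isoform that mediates insulin-stimulated glucose uptake. Its log2 signal was 11.25, 11.67 and 11.54 in cKO HFD arrays, 11.79, 11.88 and 11.54 in control HFD arrays, 11.54, 10.26 and 11.03 in cKO SD arrays and 10.56, 12.08 and 11.22 in control SD arrays. The HFD arrays lay within the range of the SD arrays, which spread widest. Averaged over genotypes the diet difference was 0.50 ± 0.275 (limma adjusted p = 0.213), and the averaged genotype difference was −0.30 ± 0.275 (adjusted p = 0.760). Over the 12 BAT arrays Akt2 ran opposite to Grb10 (r = −0.93) and with Pck1 (r = 0.79), as a description with no test, and these arrays differ in cell mix and diet.

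The glucose transporters showed no passing difference in BAT. Slc2a4 encodes GLUT4, the transporter that insulin brings to the surface of fat and muscle cells. On SD its log2 signal was 11.90, 11.96 and 11.80 in cKO mice, against 12.44, 13.07 and 12.28 in controls. On HFD it was 12.17, 12.17 and 11.64 in cKO mice, against 11.92, 12.39 and 12.18 in controls. The genotypes did not overlap on SD and did on HFD.

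The Slc2a4 difference, cKO minus control, was −0.71 ± 0.223 on SD (limma adjusted p = 0.982) and −0.17 ± 0.223 on HFD (adjusted p = 0.907). Averaged over diets it was −0.44 ± 0.158 (limma adjusted p = 0.547), with a 95% interval of −0.79 to −0.09. Slc2a4 was the 1 member of 9 that did not overlap between genotypes on SD, as 7.24% of all genes did not. The diet difference averaged over genotypes was −0.16 ± 0.158 (adjusted p = 0.485), with an interval of −0.52 to 0.19.

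Slc2a1 encodes GLUT1, the transporter of basal uptake. In BAT it was between 6.86 and 7.52 in cKO HFD, 7.28 and 7.52 in control HFD, 7.32 and 7.56 in cKO SD and 6.61 and 7.63 in control SD arrays. All groups overlapped. The averaged diet difference was −0.05 ± 0.184 (95% interval −0.47 to 0.36) and the averaged genotype difference −0.07 ± 0.184 (−0.48 to 0.34).

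At the transcriptional end, Foxo1, the factor that AKT holds in check, had log2 signals of 8.74, 9.08 and 8.81 in cKO HFD, 8.74, 8.81 and 8.26 in control HFD, 10.68, 9.46 and 9.02 in cKO SD and 9.05, 9.03 and 8.81 in control SD arrays. Array 1 of the cKO SD group stood highest, and the diets overlapped in both genotypes. The averaged diet difference was −0.60 ± 0.250 (limma adjusted p = 0.111). It was −0.36 (adjusted p = 0.0731) without that array and −0.25 (0.472) with array weights. The genotype difference was 0.76 ± 0.354 on SD, where that array enters (adjusted p = 0.982), and 0.27 ± 0.354 on HFD, where it does not (0.906).

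Pck1 encodes the cytosolic phosphoenolpyruvate carboxykinase, which in fat makes the glycerol backbone for triglyceride. Its upstream 250 bases (RefSeq GRCm38.p6, plus strand, chr2:173152823-173153072) are shown for the match to the cAMP response element core in capitals, ACGTCA, starting 91 bases before the gene start.
Pck1: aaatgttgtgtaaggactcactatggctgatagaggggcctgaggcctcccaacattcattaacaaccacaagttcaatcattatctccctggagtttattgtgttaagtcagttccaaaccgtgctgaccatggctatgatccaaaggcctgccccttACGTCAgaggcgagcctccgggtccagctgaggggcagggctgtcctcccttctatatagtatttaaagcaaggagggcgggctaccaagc
That core, or TGACGT, was in 6.47% of 32851 windows. Of the member windows 2 held it, that of Pck1 and window 2 of Grb10, where it starts 160 bases before the start. In BAT, Pck1 had log2 signals of 16.12, 17.62 and 17.49 in cKO HFD and 16.54, 16.48 and 17.63 in control HFD arrays, against 17.60, 14.27 and 15.02 in cKO SD and 13.49, 16.47 and 15.50 in control SD arrays. HFD controls all lay above SD controls, by the smallest margin against array 2. The averaged diet difference was 1.59 ± 0.669 (limma adjusted p = 0.115), and 2 of 22 alternatives passed, without array 1 of the cKO SD group (2.08, adjusted p = 0.0262) and with array weights (2.11, 0.0159). The difference was 0.97 (adjusted p = 0.710) with the muscle covariate, 0.48 (0.591) with the brown adipocyte covariate and 0.83 (0.396) without the pair of arrays of lowest brown adipocyte markers. The pair of arrays with the lowest brown adipocyte means, 7.88 and 9.77, also held the lowest Pck1 signals, 13.49 and 14.27.

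**Figure D3:**
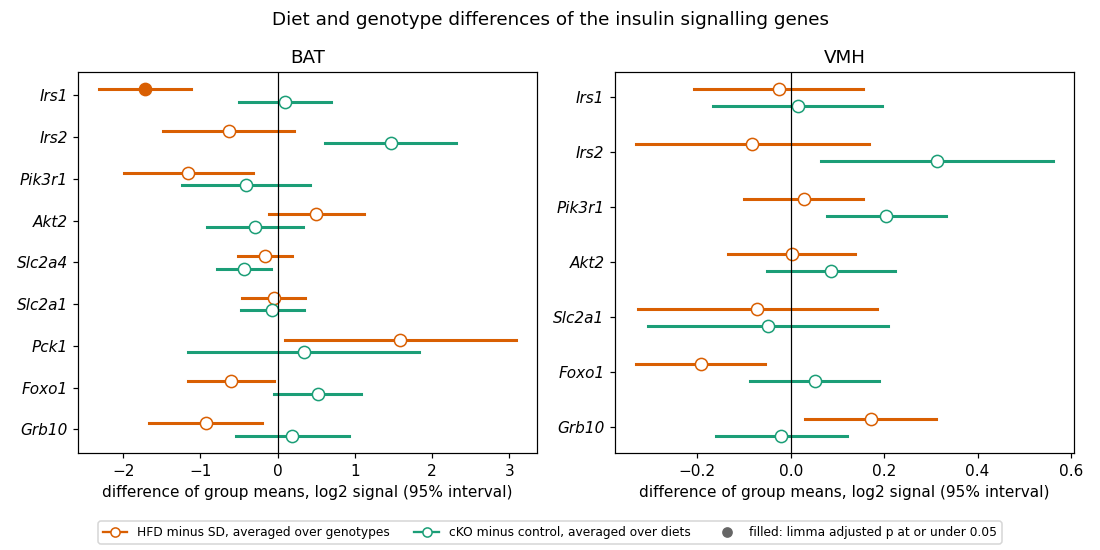
Difference of group means in log2 signal with 95% intervals for the members tested in BAT (left, 9 genes) and VMH (right, 7 genes). Orange is HFD minus SD averaged over genotypes, and green is cKO minus control averaged over diets. The filled point, Irs1 in BAT at −1.71, is the one with an adjusted p at or under 0.05, and the horizontal scales of the panels differ.

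Taken as a list on diet averaged over genotypes in BAT, the members held 0 higher and 1 lower call, with 8 not passing. In that comparison 18.5% of all genes passed. The median difference of the members was −0.60, while the median over all tested genes was 0.04. In controls the median was −0.43 (all genes 0.05), and in cKO mice −0.30 (all genes 0.04), where 29% of genes did not overlap between diets and 1 member, Irs1, did not. The genotype medians were 0.18 on SD, 0.04 on HFD and 0.10 averaged over diets, with all-gene medians of −0.02 each.

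The rest of the pathway was read from 8 lists with 101 genes tested in BAT. On diet averaged over genotypes, 13 genes rose and 8 fell, and 80 did not pass, beside the 18.5% of all genes that passed. Among glucose transport and phosphorylation genes, 3 of 12 rose and 1 fell. Hk1, a hexokinase that traps glucose in the cell, rose by 1.82 ± 0.230 (limma adjusted p = 0.0090). It was the 1 list gene of 101 that also passed in controls alone (1.95, limma adjusted p = 0.038), where 0.771% of all genes passed. The call of Hk1 in controls held in 6 of 17 alternatives, with limma adjusted p values up to 0.238. Txnip, an arrestin-like protein that limits glucose uptake, rose by 1.43, and its relative Arrdc4 by 0.64. Slc2a12, a further glucose transporter, fell by 1.58.

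The calls of the other lists are to be read against the same 18.5%. Of 9 negative regulators 2 rose, the adaptor Grb14 (1.001) and the phosphatase Ptpn1 (0.40), both of which act on the receptor. Of 10 mTORC1 branch genes 2 rose, the translation repressor Eif4ebp1 (0.74) and Tsc2 (0.72), an inhibitor of that branch. Among 15 GLUT4 trafficking genes, the small GTPases Rab8a (0.84) and Rac1 (0.37) rose, and Tbc1d4 (−0.62), an AKT substrate, and Rab10 (−0.56), the GTPase it acts on, fell. Of 11 PI3K and AKT genes the atypical kinase Prkci rose (0.81), and of 11 receptor and adaptor genes the growth factor Igf1 fell (−2.03).

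Among 16 glycogen and gluconeogenesis genes, Pck2 (0.56), the mitochondrial relative of Pck1, and the glucose-6-phosphatase G6pc3 (0.50) rose, and glycogen synthase Gys1 (−0.94) fell. Of 17 FOXO-linked genes the cyclin Ccng2 rose (1.21), and the transcription factor Foxo4 (−0.31), Fbxo32 (−3.43) and Trim63 (−3.27) fell. Fbxo32 and Trim63 encode ubiquitin ligases known from muscle, and muscle markers were lower on HFD in the same arrays. The part of muscle content in these falls was not tested, and the muscle mean nearly follows diet here. Against 21 list calls, the count was 0 with the muscle marker mean as a covariate, 3 with the brown adipocyte mean, and without the pair of arrays of lowest brown adipocyte markers 1. In the other BAT comparisons 0 list genes passed, except Hk1 in controls.

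**Figure D4:**
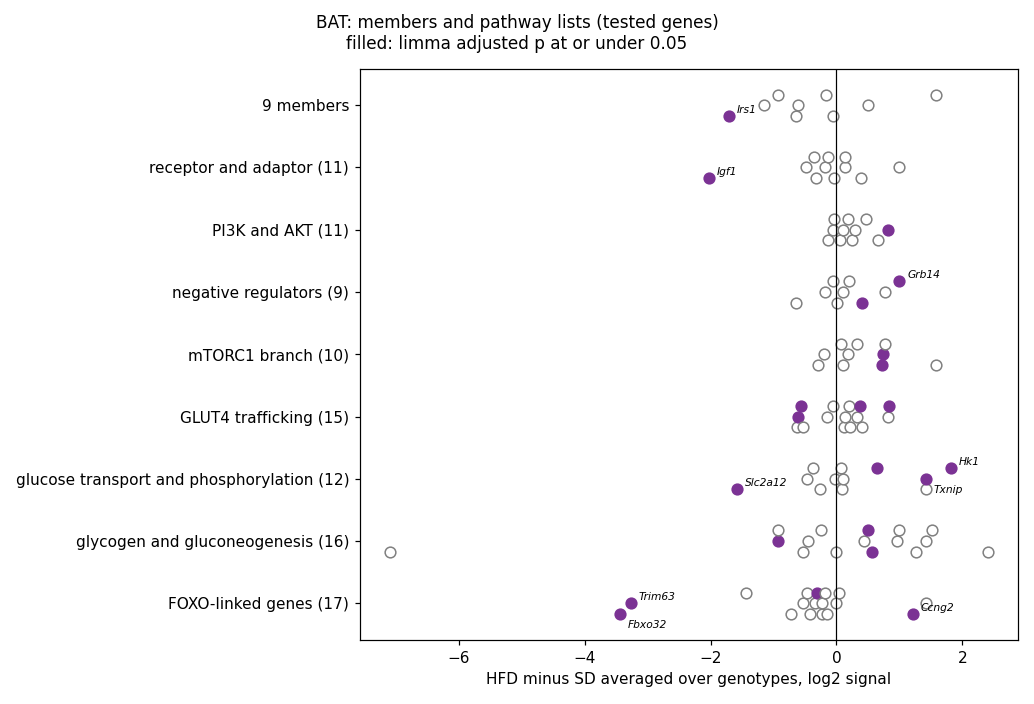
HFD minus SD averaged over genotypes in BAT, in log2 signal, for the 9 members and the tested genes of 8 pathway lists (number in brackets). Each circle is a gene, its small vertical offset has no meaning, and filled circles have a limma adjusted p at or under 0.05. Hk1 lies at 1.82 and Fbxo32 at −3.43. The open circle at −7.10 is the muscle glycogen phosphorylase Pygm (adjusted p = 0.053), named after its value was seen.

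By the likeness rule, the genes whose signal followed Irs1 most closely over the 12 BAT arrays were Ube2v2 (r = 0.949), Art3 (0.947), Slc7a10 (0.943), Dpf3 (0.938) and Nfic (0.936), among 11514 candidates. The arrays differ in diet and in cell mix, both of which enter these correlations, and the values are descriptions. Within the members, Irs1 ran with Pik3r1 (r = 0.84) and Grb10 (r = 0.83), and Pck1 ran opposite to Grb10 (r = −0.89).

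In VMH, 7 members were tested among 16211 genes and 0 passed in any of the 7 comparisons, with 0 to 2 members at an unadjusted limma p under 0.05 in each. Slc2a4 (4.95 to 5.29) and Pck1 (4.39 to 4.65) lay under the level of 5.51 required for a test in all 12 arrays. In BAT the same rows read 11.64 to 13.07 and 13.49 to 17.63, with no test across tissues. Levels of different genes were not set against each other, because each is read by its own probes.

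Pik3r1 came closest to a genotype difference in VMH. Its log2 signal was 12.16, 12.14 and 12.27 in cKO mice on HFD, against 11.98, 12.01 and 12.07 in controls on HFD. On SD it was 12.18, 12.19 and 12.21 in cKO mice, against 11.79, 11.94 and 12.14 in controls. The genotypes did not overlap on either diet, and over both diets they met only through array 3 of the control SD group.

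The Pik3r1 difference, cKO minus control, was 0.20 ± 0.058 averaged over diets (limma adjusted p = 0.208), 0.24 ± 0.082 on SD (0.604) and 0.17 ± 0.082 on HFD (0.472). In those comparisons 0.66%, 0.271% and 0.302% of all genes passed, and 1.13%, 9.93% and 20.1% did not overlap. With the oligodendrocyte marker mean as a covariate the averaged difference was 0.29 (adjusted p = 0.0279), and without array 3 of the control SD group 0.25 (0.0409). That mean lay between 9.68 and 10.83 in cKO arrays and between 10.13 and 11.74 in control arrays. Its part in the difference was not tested further. Averaged over diets, 0 of 7 oligodendrocyte markers were called between genotypes. Of 8 astrocyte markers 1 was called higher and 0 lower in cKO mice. Their differences ran from −0.38 to 1.31, with 5 positive and 3 negative. The part of astrocyte content in the Pik3r1 difference was not tested. The genes most like Pik3r1 over the 12 VMH arrays were Aida (r = 0.928), Lap3 (0.914), Ifitm3 (0.906), Apoe (0.900) and Stat6 (0.900), among 11246 candidates.

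Irs2 in VMH read 11.63, 11.97 and 12.06 in cKO HFD arrays, 11.71, 11.71 and 11.47 in control HFD arrays, 12.14, 12.15 and 11.79 in cKO SD arrays and 11.90, 11.35 and 11.72 in control SD arrays. The genotypes overlapped on both diets. Averaged over diets the difference was 0.31 ± 0.113 (limma adjusted p = 0.332), and the BAT value given above was 1.46, also cKO minus control.

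For diet, Foxo1 and Grb10 had the lowest unadjusted p values among the members in VMH. Foxo1 read 6.77, 7.06 and 7.04 in cKO HFD and 6.77, 6.97 and 6.89 in control HFD arrays, against 7.04, 7.18 and 7.14 in cKO SD and 7.09, 7.03 and 7.18 in control SD arrays. The diets did not overlap in controls. The difference was −0.19 ± 0.063 averaged over genotypes (limma adjusted p = 0.272), and −0.22 ± 0.089 in controls (0.538). Of the 7 tested members, Irs1 was the other without overlap between diets in controls, at −0.16 ± 0.116 (0.750).

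Grb10 read 11.43, 11.35 and 11.27 in cKO HFD and 11.55, 11.33 and 11.28 in control HFD arrays, against 11.15, 11.15 and 11.30 in cKO SD and 11.23, 11.31 and 11.07 in control SD arrays. The diets overlapped in both genotypes. Its averaged diet difference was 0.17 ± 0.064 (limma adjusted p = 0.314), against −0.93 in BAT. In these diet comparisons 0% of genes passed in controls (1377 at an unadjusted p under 0.05), 0.00617% in cKO mice and 0.0123% averaged over genotypes. Non-overlap was found for 12.5% of genes in controls, 17.6% in cKO mice and 0.814% over both genotypes.

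Irs1, Akt2 and Slc2a1 had small averaged differences between VMH groups. For Irs1 the diet difference was −0.16 in controls and 0.11 in cKO mice, an interaction of 0.27 (limma adjusted p = 0.880). Averaged over genotypes the diet differences were −0.03, 0.00 and −0.07, and averaged over diets the genotype differences were 0.02, 0.09 and −0.05. The interval of Slc2a1, GLUT1, the transporter of brain capillaries and astrocytes, was −0.33 to 0.18 for diet and −0.30 to 0.21 for genotype. The mean of 8 endothelial markers lay between 6.76 and 6.96 in all VMH arrays. Interaction tests called 0% of VMH genes (911 at an unadjusted p under 0.05), and the member interactions had adjusted p values between 0.880 and 0.989. Of 92 list genes tested in VMH, 0 passed in any comparison, with 10 at an unadjusted p under 0.05 for genotype averaged over diets and 8 for diet averaged over genotypes.

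**Figure D5:**
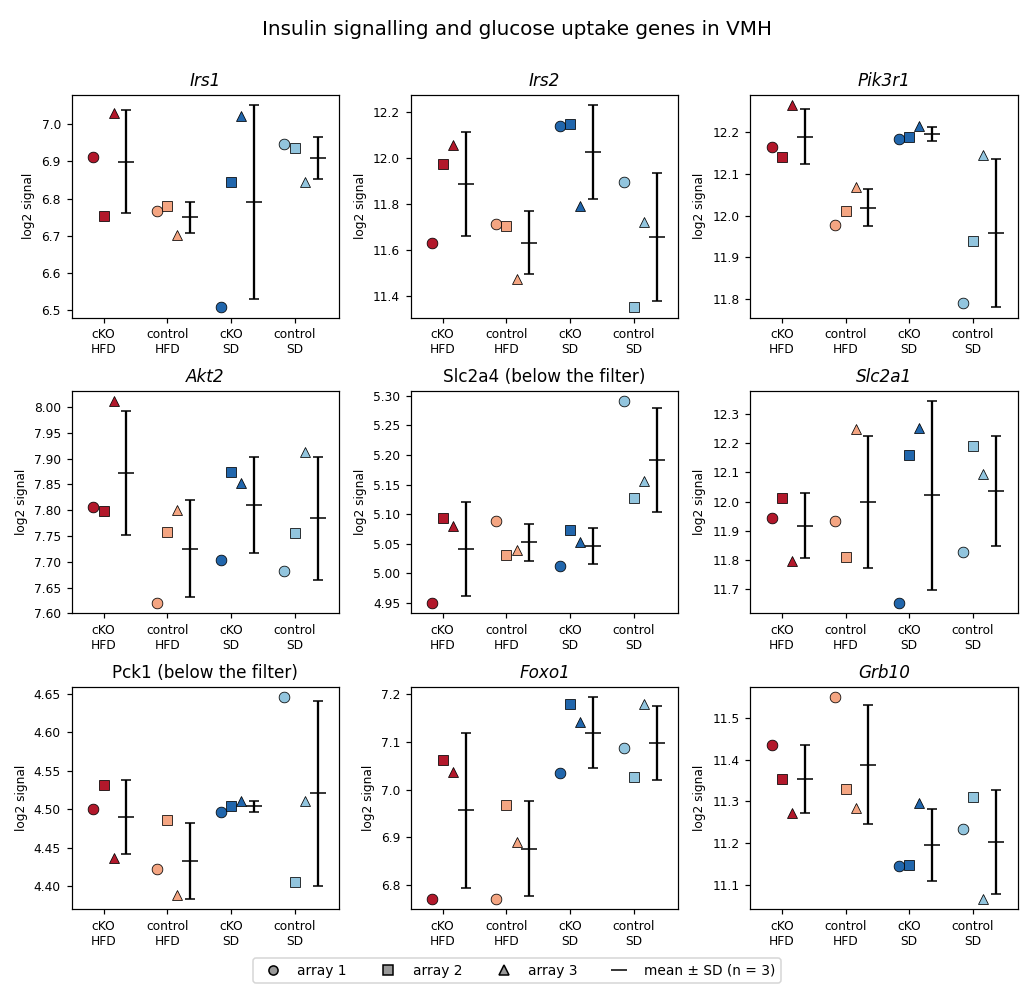
Log2 signal of the 9 measured genes in VMH by array, with the groups, symbols and bars of the BAT plot. Slc2a4 and Pck1 lie under the level required for a test. Pik3r1 is between 12.14 and 12.27 in the 6 cKO arrays and between 11.79 and 12.14 in the 6 control arrays.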

How the data were processed

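RNA from BAT and VMH was measured on 24 Affymetrix arrays. The authors' deposited table holds log2 signals, 1 column per array and 72688 rows, between 2.12 and 19.93. Per the submitters' processing notes, the tools were Affymetrix Expression Console 1.1.1 and PLIER 2.0, without a stated role. Between-array normalization and genome build: not given in the sources used here. With few arrays per group, their number limits precision.

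Symbols came from the platform annotation: 30604 rows had 1 symbol and 2146 several. Through Entrez numbers 22818 rows matched RefSeq (GRCm38.p6), and 827 symbols were updated. The deposited values were used as they are. A gene entered the tests when its average in a tissue (12 arrays) was at least the table median of row means (4.13 in BAT, 5.51 in VMH), which left 17124 and 16211 genes.

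In each tissue, a linear model of 4 groups without a block was fitted with limma 3.58.1 (R 4.3.3), and 7 comparisons were drawn from it. Two-sided p-values had Benjamini-Hochberg adjustment over all genes of a comparison, with a threshold of 0.05. The procedure was tested on simulated data. Named genes were all members, in each list up to 6 genes past the threshold by smallest p, and the 5 genes most correlated with the member of largest moderated t. In VMH, where no list gene passed, the lists are given as counts. The members and lists were chosen with earlier results of these data known. The brown adipocyte alternatives and the cAMP element were chosen after seeing the data.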

Additional observations from a re-analysis of the deposited data

How the results depend on the processing

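The alternatives were array weights, no filter, quantile normalization, a replicate block, marker means as covariates, a pseudocount of 16, averaging all rows of a gene, fitting the compared groups alone, a robust prior with a trend and leaving out each array, and, chosen after seeing the data, a brown adipocyte covariate and BAT without the 2 arrays of lowest brown adipocyte markers. Over 69 results and 1349 alternatives, 990 stayed the same, 248 fell out of the threshold, 14 came past it and 97 counts moved. Though 0 changed direction, counts have no direction to change. Gene results entered by a low p or the largest t in these data, so a kept direction says little. The count of members called in BAT for diet averaged over genotypes, 1, became 4 with array weights, 0 with the muscle covariate and 0 without the 2 arrays of lowest brown adipocyte markers, and ranged from 1 to 4 leaving out 1 array. For diet in cKO mice the count of 0 became 5 with array weights and ranged from 0 to 1 leaving out 1 array. For diet in controls the count of 1 became 0 with quantile normalization, no filter, array weights, the replicate block, the muscle covariate, the brown adipocyte covariate and without those 2 arrays, and ranged from 0 to 2 leaving out 1 array. The 21 list genes called in BAT became 13 without the filter, 41 with array weights, 11 with the replicate block, 0 with the muscle covariate, 3 with the brown adipocyte covariate and 1 without those 2 arrays, and ranged from 3 to 50 leaving out 1 array. In VMH the count for genotype averaged over diets, 0, became 1 with the oligodendrocyte covariate and ranged from 0 to 1 leaving out 1 array. The causes were not tested. Over all genes, the BAT count for averaged diet, 3171, ranged from 15 to 5986 over the alternatives, and that in controls, 132, from 0 to 2715. With the replicate block the Irs1 difference in controls had a limma adjusted p of 0.0754 and the averaged one 0.0256. Deviations of same-numbered arrays of different groups had correlations from −0.772 to 0.390 in BAT and from −0.351 to 0.280 in VMH. Their medians were 0.093 and −0.012, against −0.018 and 0.008 for arrays of unlike number. The check ran within a tissue, so it cannot tell whether a number marks a shared animal or batch. Signals under the filter level limit what could be read of Slc2a4 and Pck1 in VMH, and neither was tested there.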
